A study of Saccharomyces cerevisiae with 6 samples.

Results

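The genes described here make, decorate or remodel the cell wall of budding yeast. They were chosen by gene symbol: named wall, glucan and mannan genes together with numbered members of families such as PMT, MNN, KTR, GAS, CHS and PAU. The rule matched 48 of the 979 yeast genes on the array. By role, 27 of them encode mannosyltransferases or their partners, 9 wall proteins, 8 enzymes that make or remodel glucan and chitin, and 4 are metabolic enzymes that carry an ECM name. Of the 9 wall protein genes, 7 belong to the PAU family.

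Total RNA of Saccharomyces cerevisiae was amplified, labelled with biotin and hybridized to 6 single-colour oligonucleotide arrays. In one group, 3 arrays received RNA of the wild type strain. In the other, 3 arrays received RNA of the same wild type strain overexpressing ACC1, which encodes acetyl-CoA carboxylase, the enzyme at the entry to fatty acid synthesis. The labels used here give neither the promoter and vector behind the overexpression nor the growth medium. They do not say whether replicates were separate cultures, so the spread behind each p-value is that of these arrays and could be technical.

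The yeast wall is a network of beta-glucan with some chitin, covered by an outer layer of proteins that carry long mannose chains. Protein O-mannosyltransferases of the PMT family attach the first mannose to serine or threonine in the endoplasmic reticulum. In the Golgi, OCH1 starts the long outer chain on N-linked glycans, complexes holding MNN9 lengthen it, and the MNN, KTR and MNT enzymes add branches and caps. Glucanosyltransferases of the GAS family and the chitin synthases then shape the polysaccharide network to which wall proteins are attached.

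As a check of the labels, ACC1 itself (YNR016C) stood at normalized log2 intensities of 11.67, 11.76 and 11.87 in wild type and 14.00, 14.12 and 14.13 in ACC1 overexpression, a 4.99-fold difference. The median yeast spot was 2.17-fold brighter on the wild type arrays (mean intensity 4120 against 1900 in ACC1 overexpression). Every wild type array was brighter than every ACC1 overexpression array. Normalization gave the arrays a common distribution. An effect of brightness on single probes cannot be told apart from ACC1 overexpression. Each gene had 1 probe, printed in 2 to 4 spots. Of the 48 genes, 34 lay above the 95th percentile of the control probes on all 6 arrays, and none had a saturated spot. KRE2, KTR2, MNN9, PAU3 and PAU7 lay above it on no array, so no fold is given for them. Precision is limited by the small number of arrays. Each difference below is on the log2 scale, ACC1 overexpression minus wild type.

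The probes of the 3 genes that passed the test are shown first, because each call rests on a single short oligonucleotide. Letters are given as the files list them, and capitals mark the longest run of letters shared with another yeast probe on the array. The positions given are those in the probe names, counted along the open reading frame.
HSP150 (YJL159W, bases 1083 to 1117): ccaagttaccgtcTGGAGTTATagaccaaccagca
HOC1 (YJR075W, bases 480 to 514): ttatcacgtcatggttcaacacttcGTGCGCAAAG
MNN4 (YKL201C, bases 3056 to 3095): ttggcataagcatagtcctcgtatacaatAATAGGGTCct
The longest shared run was 9 letters for HSP150, 10 for HOC1 and 9 for MNN4. The comparison covered the probes of this array and no other transcripts.

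In limma, 3 of the 48 genes had an adjusted p below 0.05: HSP150 and MNN4 were higher and HOC1 was lower in ACC1 overexpression. That is 6.25% of the genes, where 3.47% of all 979 genes passed, 2.66% of them as higher and 0.817% as lower. The median difference was 0.04 over the 48 genes and −0.01 over all genes. The groups of 3 arrays did not overlap for 14 of the 48 genes (29.2%), against 24.7% of all genes. By direction, 9 of the 14 were higher and 5 lower, while among all genes 13.3% were apart as higher and 11.4% as lower. At an unadjusted p under 0.05, 5 of the 48 were higher and 6 lower, where 10.6% of all genes were higher, 9.5% lower and 20.1% either. The shares apart and at an unadjusted p thus lay near the background of the array, and the called share rests on 3 genes. Arrays with the same replicate number occupied the same block of rows in the scanner layout. With that position as a block in the fit, 7 of the 48 genes passed, where 12.4% of all genes did. The sample titles name no slide or hybridization batch. If each group had its own, that effect could not be told apart from ACC1 overexpression.

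**Figure D1:**
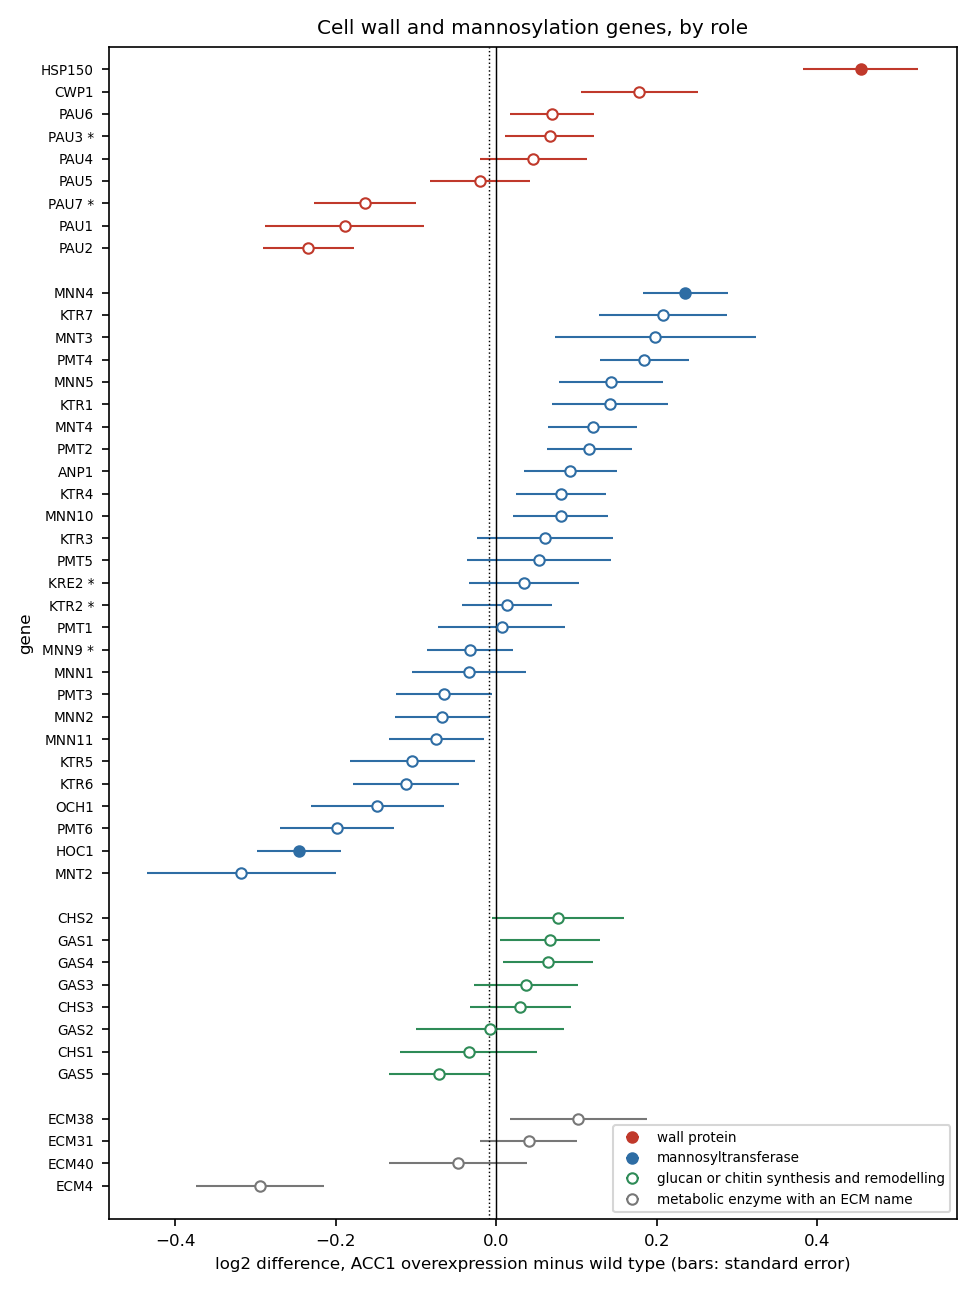
Log2 difference between ACC1 overexpression and wild type for each of the 48 genes, grouped by role and sorted within it, with its standard error. Filled points passed an adjusted p of 0.05 (HSP150, MNN4 and HOC1), open points did not, an asterisk marks genes above the control probes on no array, and the dotted line is the median of all genes, −0.01.

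HSP150 encodes a secreted, O-mannosylated wall protein with internal repeats (the PIR family) that is bound covalently to glucan. Its normalized log2 intensity was 11.87, 11.84 and 12.06 on the wild type arrays and 12.40, 12.31 and 12.42 on the ACC1 overexpression arrays. The groups did not overlap, and wild type replicate 3 lay closest to the other group. The difference was 0.45 with a standard error of 0.07, a 1.37-fold higher signal (adjusted p = 0.0175), and HSP150 ranked 8 of 979 genes by p-value. Before normalization the spots read 5019, 5466 and 7060 in wild type and 3537, 3125 and 3993 in ACC1 overexpression, so the direction rests on scaling the arrays to each other. Relative to the median yeast spot of its own array, HSP150 stood at 1.36, 1.33 and 1.55 in wild type and 1.88, 1.74 and 1.97 in ACC1 overexpression.

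Within the 3 array positions, HSP150 was higher by 0.54, 0.47 and 0.36. The call was lost without wild type replicate 2 (adjusted p = 0.0921) and without ACC1 overexpression replicates 1, 2 or 3 (0.0820, 0.0709 and 0.0984). It held in the other 12 alternatives, from 0.40 with a common median to 0.68 after normexp with no offset.

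CWP1, a mannoprotein linked to wall glucan, was the other wall protein outside the PAU family. Its values were 11.15, 11.26 and 11.35 in wild type and 11.34, 11.52 and 11.42 in ACC1 overexpression. The groups overlapped narrowly, since ACC1 overexpression replicate 1 lay just below wild type replicate 3. The difference was 0.18 (standard error 0.07, adjusted p = 0.216), and the probe was above the control probes on 2 of the 3 wild type arrays. RNA was measured in bulk, so a change in the share of cells that express a gene and a change per cell cannot be told apart.

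The PAU genes form a subtelomeric family of near-identical small mannoprotein genes linked to anaerobic growth and alcoholic fermentation. None of the 7 measured passed the test in limma. At an unadjusted p under 0.05, 2 of the 7 (PAU2 and PAU7) were lower, as were 9.5% of all genes. Of these, PAU7 lay above the control probes on no array. The differences of the 7 genes were 3 above and 4 below 0, with a median of −0.02. Because members of the family are so alike, their probes can share signal. The 4 probes with long runs in common are shown, with capitals as above.
PAU2 (YEL049W, bases 320 to 357): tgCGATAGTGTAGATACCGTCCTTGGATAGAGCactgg
PAU6 (YNR076W, bases 320 to 355): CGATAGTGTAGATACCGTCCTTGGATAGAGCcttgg
PAU1 (YJL223C, bases 48 to 85): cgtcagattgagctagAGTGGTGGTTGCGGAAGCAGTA
PAU4 (YLR461W, bases 40 to 73): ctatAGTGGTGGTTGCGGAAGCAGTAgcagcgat
PAU2 and PAU6 share a run of 31 letters, and PAU1 and PAU4 one of 22. No other pair among the 7 measured shares more than 10. The comparison was between probes, which lie at differing positions, and not with transcripts. A short run thus does not show that a probe is free of signal from other PAU genes.

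The PAU2 probe read 13.15, 13.20 and 13.24 in wild type and 12.92, 12.96 and 13.01 in ACC1 overexpression, with no overlap between the groups. Its difference was −0.23 (standard error 0.06, adjusted p = 0.0604), and −0.23, −0.24 and −0.23 within the array positions. With position as a block PAU2 passed in limma (adjusted p = 0.0203). The PAU6 probe, despite the shared run, read 12.48, 12.46 and 12.53 in wild type and 12.54, 12.57 and 12.57 in ACC1 overexpression, a difference of 0.07 (standard error 0.05, adjusted p = 0.506). Those groups did not overlap either, with ACC1 overexpression on the higher side.

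PAU1 stood at −0.19 (adjusted p = 0.323) and PAU4 at 0.05 (adjusted p = 0.757). The change at PAU2 lay 0.30 below that at PAU6, and the change at PAU1 lay 0.24 below that at PAU4. An exact two-sided permutation test gave p = 0.1 for each of these 2 differences (also after Benjamini-Hochberg adjustment), the smallest value that 3 against 3 arrays allow, and both pairs were picked after their values were seen.

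PAU7 read 10.67, 10.63 and 10.50 in wild type and 10.42, 10.48 and 10.42 in ACC1 overexpression, below the control probes throughout. PAU3 was also below them on all arrays. PAU5 stood at −0.02 and was above them on 1 wild type array and 2 ACC1 overexpression arrays.

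**Figure D2:**
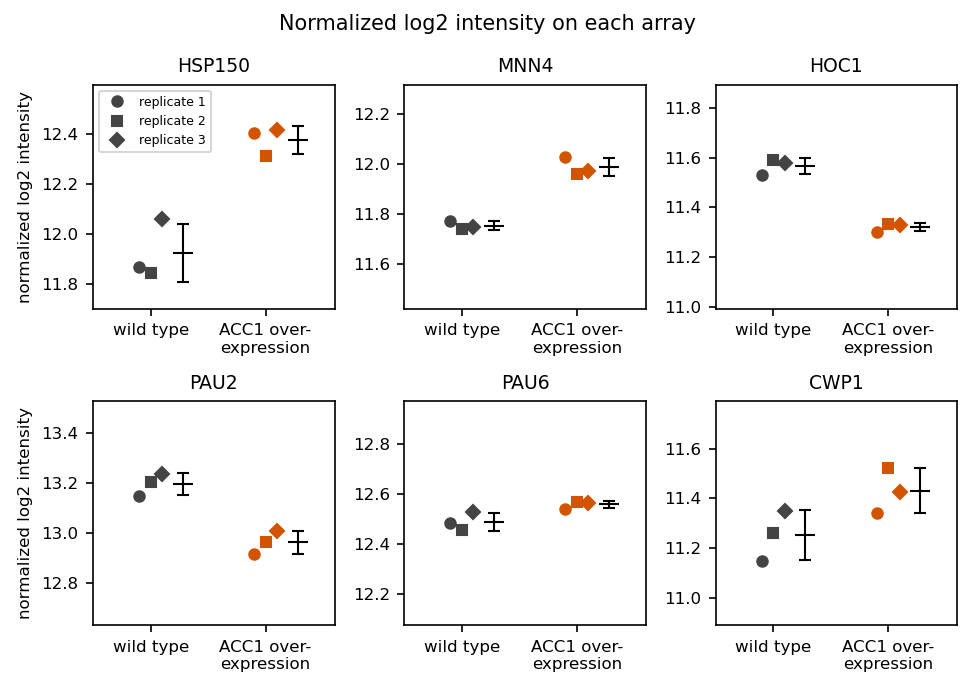
Normalized log2 intensity of 6 genes on each array, with replicates 1, 2 and 3 as circles, squares and diamonds and the mean and SD (n = 3) beside them; each panel spans the same height. The groups are apart for HSP150, MNN4, HOC1, PAU2 and PAU6 and overlap for CWP1.

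HOC1 encodes a Golgi alpha-mannosyltransferase, a subunit of the complex with ANP1, MNN9, MNN10 and MNN11 that lengthens the mannan backbone. Its values were 11.53, 11.59 and 11.58 in wild type and 11.30, 11.33 and 11.33 in ACC1 overexpression. All 3 wild type values lay above all 3 ACC1 overexpression values, with SDs of 0.03 and 0.02. The difference was −0.25 with a standard error of 0.05, a 1.19-fold lower signal (adjusted p = 0.0413). Within the array positions it was −0.23, −0.26 and −0.25.

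The HOC1 call was lost without wild type replicate 2 (adjusted p = 0.20), without ACC1 overexpression replicates 1, 2 or 3 (0.137, 0.148 and 0.148) and after normexp with no offset (−0.53, adjusted p = 0.0523). After normexp with an offset of 50 the difference was −0.51 and passed (adjusted p = 0.0461).

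The other subunits of the complex gave no call. ANP1 read 11.11, 10.98 and 11.08 in wild type and 11.18, 11.14 and 11.12 in ACC1 overexpression, groups that did not overlap (0.09, adjusted p = 0.412). MNN10 stood at 0.08 and MNN11 at −0.07, both with overlapping groups, and MNN9 was not above the control probes. OCH1, which starts the outer chain, stood at −0.15 (standard error 0.08, adjusted p = 0.361), with ACC1 overexpression replicate 3 the lowest of its 6 values at 11.82.

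MNN4 is described in the probe annotation as a putative positive regulator of mannosylphosphate transfer, the step that places phosphate-linked mannose on glycans. It read 11.77, 11.74 and 11.75 in wild type and 12.03, 11.96 and 11.97 in ACC1 overexpression. The groups were apart, and the spread within each was small (SD 0.02 and 0.04). The difference was 0.24 with a standard error of 0.05, a 1.18-fold higher signal (adjusted p = 0.0480), and within positions it was 0.26, 0.22 and 0.23.

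MNN4 lies at the threshold. Of 16 alternatives it passed in 3, namely with array weights, with the replicate block and without wild type replicate 3. With a common median it stood at 0.20 (adjusted p = 0.0577), and without wild type replicates 1 or 2 its adjusted p was 0.0668 and 0.205. Without ACC1 overexpression replicates 1, 2 and 3 the adjusted p was 0.166, 0.148 and 0.148. KTR6, the probable mannosylphosphate transferase, stood at −0.11 (standard error 0.07, adjusted p = 0.389) with overlapping groups.

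**Figure D3:**
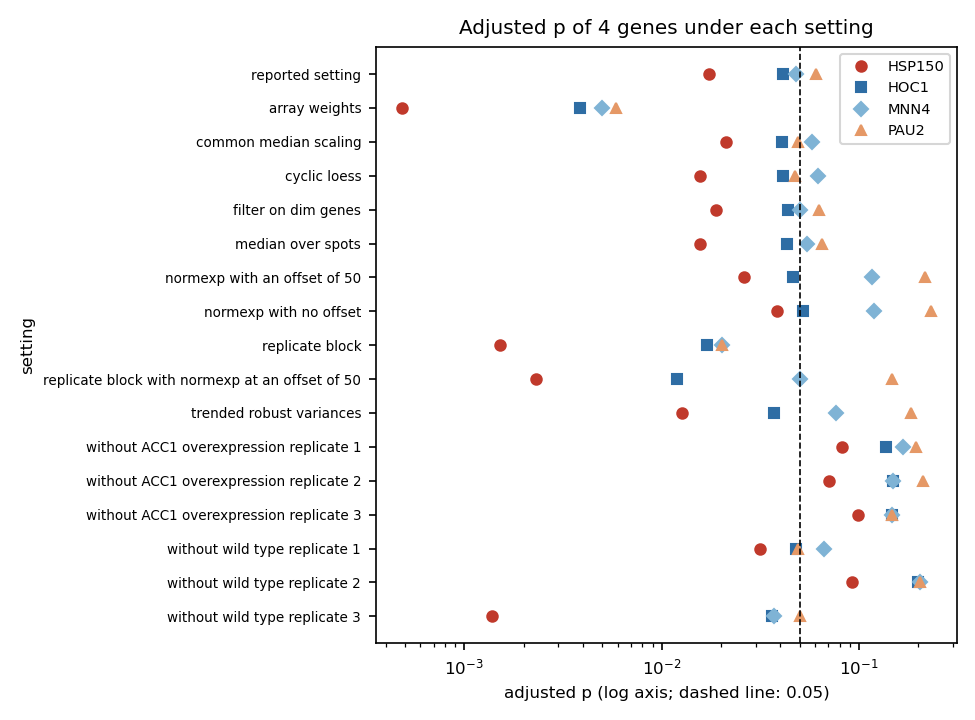
Adjusted p (log axis) of HSP150, HOC1, MNN4 and PAU2 in the reported setting and under 16 alternatives; the dashed line is 0.05. Leaving out wild type replicate 2 or any ACC1 overexpression array put all 4 genes to the right of the line, and leaving out wild type replicate 3 kept HSP150, HOC1 and MNN4 to its left.

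Among the 6 protein O-mannosyltransferase genes, none passed in limma, and the median was 0.03. At an unadjusted p under 0.05, 1 was higher and 1 lower, against 10.6% and 9.5% of all genes. PMT4, which acts on membrane-bound proteins, read 11.90, 11.96 and 11.99 in wild type and 12.10, 12.13 and 12.18 in ACC1 overexpression (0.18, standard error 0.06, adjusted p = 0.119). PMT2 read 11.18, 11.19 and 11.23 against 11.34, 11.34 and 11.27 (0.12, adjusted p = 0.264). Both were apart as higher.

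PMT6 was apart in the other direction, with 12.10, 12.18 and 11.93 in wild type and 11.87, 11.88 and 11.86 in ACC1 overexpression (−0.20, standard error 0.07, adjusted p = 0.166). Its difference was −0.23, −0.30 and −0.07 within the 3 positions. PMT1, the usual partner of PMT2, stood at 0.01, PMT3 at −0.07 and PMT5 at 0.05, each with overlapping groups.

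The KRE2/MNT1 family of Golgi alpha-mannosyltransferases had 8 measured genes, none of which passed in limma, and a median of 0.05. At an unadjusted p under 0.05, 1 of the 8 was higher, as were 10.6% of all genes. KTR7 read 11.01, 11.07 and 11.26 in wild type and 11.27, 11.27 and 11.42 in ACC1 overexpression (0.21, standard error 0.08, adjusted p = 0.193). Within the positions it was 0.27, 0.19 and 0.16, and with position as a block KTR7 passed (adjusted p = 0.0360). The groups of KTR7 were barely apart, and its probe was above the control probes on 2 wild type arrays. KTR1 stood at 0.14, KTR4 at 0.08, KTR3 at 0.06 and KTR5 at −0.10, all with overlapping groups, while KRE2 and KTR2 were not above the control probes.

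The branching and capping enzymes were also without a call. MNN5, which adds the outer mannose of the mannan branches, read 11.63, 11.70 and 11.69 in wild type and 11.86, 11.71 and 11.88 in ACC1 overexpression (0.14, adjusted p = 0.260). MNN2, which adds the inner one, stood at −0.07 with overlapping groups.

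Among MNN1 and its relatives, which cap the chains, MNT2 had the lowest difference of the 48 genes. It read 12.26, 12.09 and 11.76 in wild type and 11.83, 11.69 and 11.64 in ACC1 overexpression. The wild type arrays were themselves spread widely, and replicate 3 fell among the ACC1 overexpression values. The difference was −0.32 with a standard error of 0.12 (adjusted p = 0.176), and −0.45 without wild type replicate 3, where it passed (adjusted p = 0.0102). Within the positions it was −0.43, −0.40 and −0.12, and with position as a block MNT2 passed (adjusted p = 0.0152).

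MNT3 stood at 0.20 (standard error 0.12, adjusted p = 0.412) and MNN1 at −0.03. MNT4 was above the control probes on no wild type array and on 2 ACC1 overexpression arrays. It read 10.78, 10.74 and 10.71 in wild type and 10.91, 10.81 and 10.87 in ACC1 overexpression, and no fold is given because its bound did not exceed 1.

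Wall proteins and mannosyltransferases were then set side by side. The median difference was 0.05 for the 9 wall protein genes and 0.03 for the 27 mannosyltransferase genes, 0.01 apart. Wall proteins ranged from −0.23 to 0.45, and mannosyltransferases from −0.32 to 0.24. Of 9 wall proteins, 1 passed (11.1%), as higher. Of 27 mannosyltransferases, 2 passed (7.41%), 1 in each direction: HOC1 and MNN4, the latter described as a putative regulator. Among all genes 3.47% passed, 2.66% as higher and 0.817% as lower, so the shares of the 2 roles rest on 1 and 2 genes. Groups were apart as higher for 2 wall proteins (22.2%) and 7 mannosyltransferases (25.9%), against 13.3% of all genes. As lower they were apart for 2 of each (22.2% and 7.41%), against 11.4% of all genes. The 2 wall proteins apart as lower were PAU2 and PAU7, and PAU7 lay above the control probes on no array. Of the 9 wall proteins 4, and of the 27 mannosyltransferases 6, were not above the control probes on all 6 arrays.

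The gap between the medians did not separate the groups of arrays. Taking each gene's deviation from its mean over the 6 arrays, the wall protein median minus the mannosyltransferase median was −0.02, −0.04 and −0.0040 on the wild type arrays and 0.02, −0.04 and 0.01 on the ACC1 overexpression arrays. Its sign turned with the setting, from −0.04 with a common median to 0.07 with array weights. Without the PAU family the wall proteins are HSP150 and CWP1 alone, with a median of 0.32 and a gap of 0.28. That restriction was made after the values were seen, and with 2 genes it describes them and no class.

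**Figure D4:**
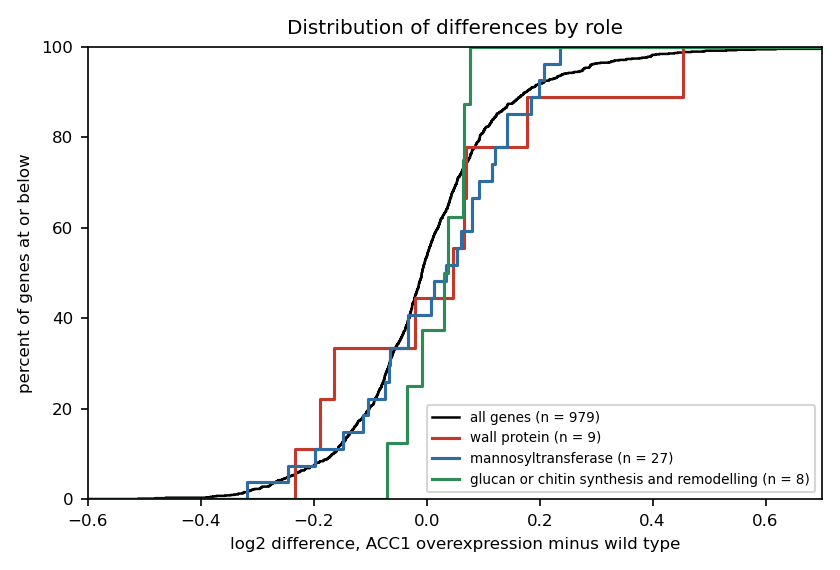
Cumulative distribution of the log2 difference (ACC1 overexpression minus wild type) for wall proteins (n = 9), mannosyltransferases (n = 27), glucan and chitin genes (n = 8) and all 979 genes. The vertical axis is the percent of genes at or below each value; the curves cross near 0, and HSP150 at 0.45 forms the last step of the wall protein curve. Genes with differences beyond the right end of the horizontal axis, ACC1 among them, are drawn at that end.

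The 8 glucan and chitin genes had the narrowest range, from −0.07 to 0.08, with a median of 0.03, and all had overlapping groups. None passed in limma, and 0 did so at an unadjusted p under 0.05. GAS1, the main glucanosyltransferase of growing cells, stood at 0.07, GAS3 at 0.04 and GAS5 at −0.07, the lowest difference of the 8. The GAS2 and GAS4 genes, which act in spore wall assembly, stood at −0.01 and 0.06. GAS5 read 11.23, 11.35 and 11.34 in wild type and 11.18, 11.32 and 11.20 in ACC1 overexpression.

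Among the chitin synthases, CHS2, which builds the primary septum, read 10.58, 10.78 and 10.79 in wild type and 10.71, 10.74 and 10.93 in ACC1 overexpression (0.08, adjusted p = 0.644). It was above the control probes on 1 array of each group. CHS3, which makes most wall chitin, stood at 0.03 and CHS1, a repair enzyme, at −0.03. Standard errors in these 8 genes were near 0.06 (median), so differences of that size could not be resolved.

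The 4 ECM genes on the array take part in metabolism according to the probe annotation. ECM4, a putative glutathione transferase, read 11.71, 11.47 and 11.47 in wild type and 11.35, 11.23 and 11.20 in ACC1 overexpression. The groups did not overlap, and the difference was −0.29 with a standard error of 0.08 (adjusted p = 0.0884). Within the positions it was −0.37, −0.24 and −0.27, and with position as a block ECM4 passed (adjusted p = 0.0098). ECM38, a gamma-glutamyl transpeptidase that degrades glutathione, read 11.71, 11.79 and 12.01 in wild type and 11.92, 12.03 and 11.87 in ACC1 overexpression (0.10). ECM31 of pantothenate synthesis stood at 0.04 and ECM40 of arginine synthesis at −0.05.

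Genes that supply or neighbour these steps were read from lists of textbook members, of which 51 genes were measured. Only 1 of the 51 passed, where 3.47% of all genes did. GDA1, the Golgi GDPase that clears the by-product of mannose transfer and so keeps GDP-mannose entering the Golgi, read 12.17, 12.23 and 12.37 in wild type and 12.49, 12.66 and 12.75 in ACC1 overexpression. The groups were apart, with a difference of 0.38 and a standard error of 0.08 (adjusted p = 0.0471). Within the positions it was 0.32, 0.43 and 0.38.

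The GDA1 call was lost in 11 of 16 alternatives, such as a common median (0.30, adjusted p = 0.0726) and cyclic loess (0.0520). Those alternatives included leaving out wild type replicate 1 or 2 (0.0806 and 0.20) and leaving out ACC1 overexpression replicate 1, 2 or 3 (0.0820, 0.187 and 0.186). In its list of 41 sugar supply, dolichol and N-glycosylation genes, 33 were measured and GDA1 alone passed. At an unadjusted p under 0.05, 5 were higher and 3 lower, against 10.6% and 9.5% of all genes. Of the 33, 16 lay below 0, and the median was 0.01. PSA1, which makes GDP-mannose, stood at −0.08, and SEC53, the phosphomannomutase before it, at 0.10.

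Cell wall integrity signalling had 7 measured genes of 27 listed, none past the threshold in limma, and a median of −0.05. At an unadjusted p under 0.05, 1 of the 7 was lower, as were 9.5% of all genes. The largest difference was that of SDP1, a phosphatase acting on the pathway's MAP kinase, at −0.25 (standard error 0.08, adjusted p = 0.151). RLM1, the transcription factor at the end of the pathway, stood at −0.05 with overlapping groups. Among 10 measured genes of GPI anchor synthesis and remodelling, of 31 listed, none passed in limma. At an unadjusted p under 0.05, 3 of the 10 were lower, as were 9.5% of all genes. Below 0 lay 8 of them (53.6% of all genes did), and the median was −0.07. GUP1, which remodels the anchor lipid, had the largest difference there, at −0.22 (adjusted p = 0.165). SKN1, a glucan synthesis gene and the only 1 measured of 24 listed glucan and chitin partners, stood at 0.10.

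By Pearson correlation of normalized log2 values over the 6 arrays, the 3 genes most like HSP150 were HHT2 (r = 0.995), FAS1 (0.992) and RIP1 (0.987). For HOC1 they were CCP1 (0.982), PAU2 (0.979) and EHT1 (0.975). The 6 arrays include the difference between the groups, and these correlations are a description.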

How the data were processed

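Scanner tables of 6 arrays were used. Per the file headers, the deposited intensity values are median foreground pixel intensities of 2240 spots per array, with no background column. The labels and headers name no scanner or software and do not say whether background was subtracted. Unsubtracted background understates folds. The authors' deposited value table holds a score for 906 rows per array, with medians of −0.06, −0.08 and −0.12 in wild type and −0.11, −0.14 and −0.15 in ACC1 overexpression. Its scale and centring are unknown. Matched by row number to the scanner probe numbers, its scores had r from −0.052 to −0.035 with log2 intensity. With the centring unknown, that correlation cannot show whether the rows match, so the score was not used further.

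Intensities were taken to log2, quantile normalized over yeast spots with 26 control probes left out, and averaged per gene. Groups from the sample titles were compared with limma 3.58.1 (R 4.3.3, lmFit and eBayes, two-sided, Benjamini-Hochberg over 979 genes, threshold 0.05). The code was run on simulated data with the same independent noise for every gene and array. That simulation does not cover arrays of unequal spread or an effect of array position. All 979 systematic names were found in the gene table of assembly R64, from which no coordinates were taken. A gene not above the control probes in a group has only a bound on its fold. Medians over lists have no test. Members, lists and the naming rule (every measured member, with array values for those past the threshold, apart between groups or most extreme in their role) were chosen with earlier results of these data known. Deviations from the group mean correlated between same-numbered arrays with r of 0.467, −0.021 and 0.385. Between differently numbered arrays r ran from −0.498 to 0.086. The reported fit did not take the numbers as pairs, and the fit with the replicate block is given beside it as an alternative. Alternatives covered normalization, background, spot averaging, dim genes, variances, weights, the block and leaving out arrays.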

Additional observations from a re-analysis of the deposited data

How the results depend on the processing

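The count of 34 genes past the threshold moved to 176 with array weights, 74 with a common median and 121 with the replicate block (142 with the block after normexp at an offset of 50). The array weights were 3.60 for wild type replicate 2 and 0.44 and 0.48 for wild type replicates 1 and 3. In that setting the wild type thus rests mainly on 1 array. The count of 34 became 5 at an adjusted p of 0.01 and 68 at 0.1. Leaving out single arrays gave 4 (without ACC1 overexpression replicate 2) to 123 (without wild type replicate 3). The count of 3 among the 48 genes moved to 11 with array weights, 5 with a common median, 1 with normexp with no offset, 7 with the replicate block and 8 with the block after normexp. It was 0 at an adjusted p of 0.01 and 5 at 0.1. Leaving out single arrays gave 0 to 8: the 0 came without wild type replicate 2 or without any one ACC1 overexpression array, where limma gave 6 to 10 of the 48 genes at an unadjusted p under 0.05, and the 8 came without wild type replicate 3, which added ECM4, KTR7, MNT2, PAU7 and PMT6. The single call among 51 neighbouring pathway genes became 11 with array weights, 4 with a common median, 0 with cyclic loess or the median over spots (11 and 12 at an unadjusted p under 0.05), 2 with either normexp setting, 5 with the block and 9 with the block after normexp. Leaving out single arrays gave 0 (without wild type replicate 2 or any ACC1 overexpression array, with 6 to 10 at an unadjusted p under 0.05 in limma) to 5 (without wild type replicate 3). With trended, robust variances it stayed at 1, but the gene was ALG6 in place of GDA1.

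The wall protein median of 0.046 was 0.077 with array weights and 0.316 without the PAU family. It was 0.030 with a common median and 0.070 after normexp with no offset. Single arrays left out gave 0.020 (wild type replicate 2), 0.021 (ACC1 overexpression replicate 2) and 0.023 (wild type replicate 1), and at most 0.056 (wild type replicate 3). The mannosyltransferase median of 0.035 was 0.0044 with array weights, 0.072 with a common median, 0.0079 with cyclic loess, 0.092 after normexp at an offset of 50 (also with the block), 0.094 with no offset, and 0.0068 over the 21 genes above the control probes on all arrays. Its values with single arrays left out spanned −0.011 (without wild type replicate 1) to 0.078 (without ACC1 overexpression replicate 1). A common median moved the median of all genes from −0.01 to 0.05. The gap between the medians, 0.012, was 0.073 with array weights, −0.042 with a common median, −0.017 with the median over spots, −0.023 with normexp at an offset of 50 (also with the block), −0.024 with no offset, and 0.28 without the PAU family. With single arrays left out it spanned −0.033 (without wild type replicate 2) to 0.034 (without wild type replicate 1). The cause of these moves was not tested.

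ACC1 was called in all 16 alternatives. Over these alternatives the 48 genes gave 761 values: 711 stayed on the side of the threshold they had, 22 dropped out (all of HSP150, HOC1 or MNN4), 28 came in, and no call changed direction. The sign of the difference turned in 34 values of 16 genes, none of them called in either setting. The replicate block was a fit with the replicate number as a term. It kept HSP150, HOC1 and MNN4 and added ECM4, KTR7, MNT2 and PAU2. The lists without PAU or restricted to genes above the control probes were chosen after seeing the data. Signal over background limits the 14 genes not above the control probes on all arrays.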

Other observations

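Read as the reverse complement, at the position its name gives, none of the 979 yeast probe sequences held an in-frame stop codon. Read as listed, 441 did, read backwards 535, and complemented without reversal 424. The listed letters are therefore those of the strand opposite to the coding strand. The labels describe labelling by T7 transcription that yields antisense RNA. The sources used here do not state which strand was synthesised on the array.

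Probe base composition of the 48 genes was that of the array, with a median GC content of 48.6% in both. Between spots of the same probe on 1 array, the median SD of log2 intensity was 0.05 for HSP150, 0.08 for HOC1 and 0.07 for MNN4.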
